A study of Mus musculus with 35 samples.

Results

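The DEAD and DEAH box RNA helicase genes are the protein-coding genes of the GENCODE vM1 mouse annotation (genome build mm9) whose symbol begins with Ddx or Dhx and goes on with a number. The rule finds 54 of 22380 protein-coding genes and of 37310 genes in all, 38 named Ddx and 16 named Dhx. A tag on the sense strand was listed for 53 of them in at least 1 library, Ddx60 being the exception. After a filter on low values 41 entered the tests and 13 did not.

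The study used individual-nucleotide cross-linking and immunoprecipitation (iCLIP), in which ultraviolet light joins a protein to the RNA it touches and the cDNA ends beside the joined base, to ask how SR proteins and the export receptor NXF1 share their RNA targets. All libraries came from P19 cells, a mouse embryonal carcinoma line, that carried 1 GFP-tagged protein each: SRSF1 (4 libraries), SRSF2 (5), SRSF3 (3), SRSF4 (3), SRSF5 (4), SRSF6 (3), SRSF7 (6) or NXF1 (3). The controls were 4 libraries of GFP with a nuclear localization signal (GFP-NLS), held in 1 pooled file and in no test. The tagged SR protein genes and Nxf1 sat on bacterial artificial chromosomes added to the cell's own copies, so a line holds more copies of the tagged gene, and possibly of its neighbors, than the other lines.

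DEAD and DEAH box proteins use ATP to unwind short RNA helices or to pull proteins off RNA. They act at nearly every step of an RNA's life: the spliceosome is remodeled by a series of them, ribosome assembly in the nucleolus needs many more, and others load export factors, start translation or mark mRNA for decay. The transcripts of these genes are described here as targets of the tagged proteins, not the helicases themselves.

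A tag is 1 listed cDNA, and a level is given as CPM, the tags of a gene scaled to 1e6 listed tags in the library. Libraries held 13038 to 4459523 listed tags (median 237488), and the helicase genes took 0.0336% to 1.35% of them, 5 to 60104 tags, with under 100 tags in 6 libraries. Because a position is listed only past the authors' threshold, the total is no sequencing depth and a value of 0 says only that no position was listed. The pooled control listed 9 helicase tags, 4 on Ddx5, 3 on Ddx21 and 2 on Ddx6, among 21880. All 6 P19 markers had tags, 1248 to 6976 for 5 of them and 3 in 1 library for Dppa5a. Of 7 markers of other lineages, T had 180 tags, Gata4 19, Gata6 10 and Pax6 8, and Sox17, Myod1 and Actc1 were at 0. Libraries labelled SRSF2 replicates 2 and 5 carry the name SRSF1 in their file headers. They are kept as labelled, and calls they decide are named below. The headers also give run dates in 2013 (SRSF2, SRSF5, SRSF6 and SRSF7 replicates 1 to 3) and 2014 (the rest).

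Per kilobase of exonic sequence, the most tagged helicase transcripts belonged to RNA processing itself. Exonic levels, as CPM per kilobase of the representative mRNA averaged over the 8 proteins, were 114 for Ddx39b, a spliceosome and export factor, 76.1 for Ddx5, 70.4 for Ddx21, 67.9 for Dhx9 and 58.7 for Dhx15. Dhx57 reached 65.7, but 7.37 when the SRSF7 libraries were set aside. Ddx17 followed at 49.5 and Ddx3x at 37.2, after which no gene passed 25. Single libraries ranged widely around these means, for Ddx39b from 0 to 204 CPM per kilobase and for Ddx5 from 0 to 207, so the order of neighbors is not resolved by the spread. SRSF6 gave the highest mean CPM for 31 of the 41 tested members and NXF1 for none. The same count was not made over all genes, so it is not a trait of the helicases. Over all 6069 tested genes, the median log2 difference from the other SR proteins was 1.04 for SRSF6. That of NXF1 from the SR proteins was -1.86.

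**Figure D1:**
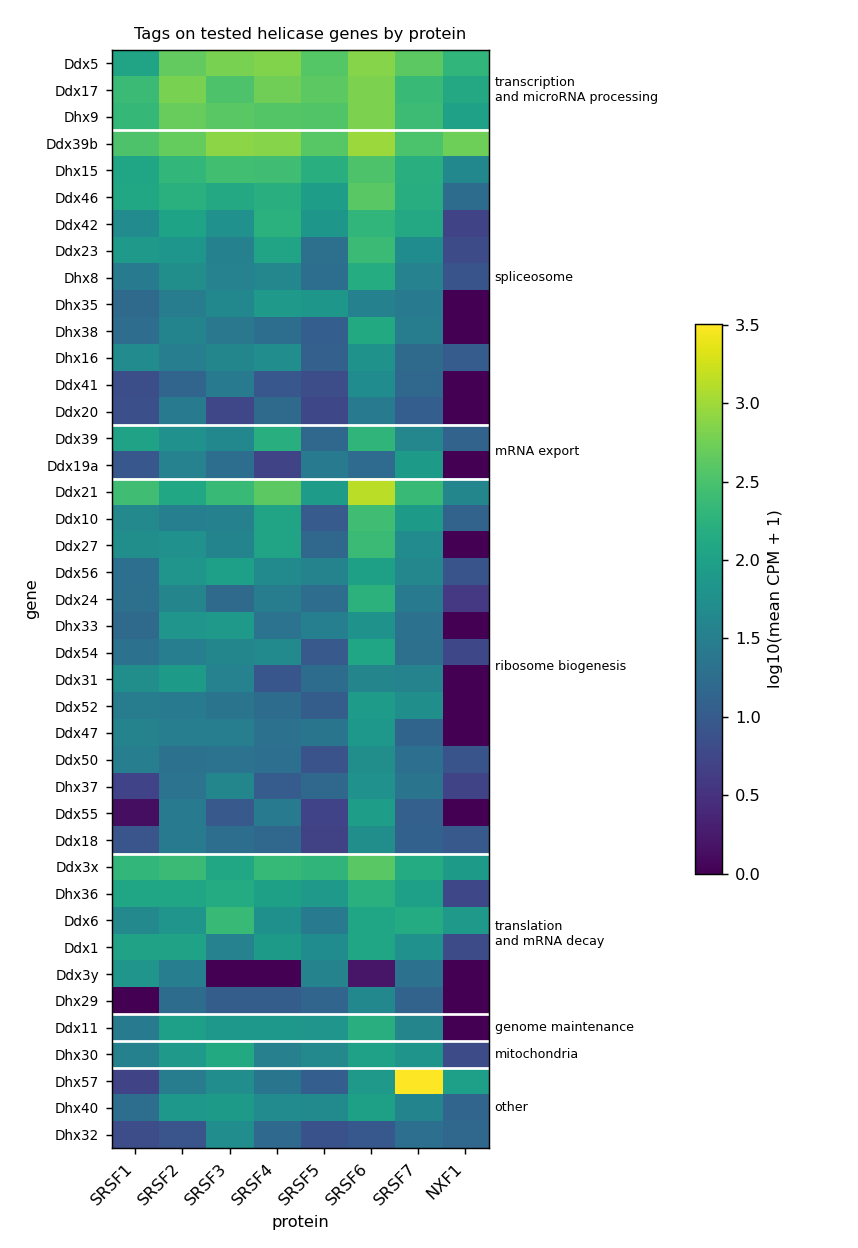
Mean CPM of each tested helicase gene (rows, grouped by role) in the libraries of each tagged protein (columns), as log10(mean CPM + 1) by color, without correction for gene length. The SRSF6 column is the brightest for most genes, the NXF1 column the darkest for 32 of the 41 genes, and Dhx57 stands out in the SRSF7 column. Such counts were not made over all genes.

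The 3 helicases of transcription and microRNA processing, Ddx5, Ddx17 and Dhx9, were tagged by every protein. Ddx5 stood at 718, 717 and 741 CPM in the SRSF6 libraries, at 840, 498 and 564 CPM in those of SRSF3, and at 253, 235 and 110 CPM in those of NXF1. Ddx17 gave 590, 607 and 770 CPM with SRSF6 and 126, 192 and 64.4 CPM with NXF1. In both genes every SRSF6 library lay above every NXF1 library, while the lowest SR protein libraries were at 0. Dhx9, a helicase of long duplexes, gave 705, 597 and 641 CPM with SRSF6 and 381, 427 and 394 CPM with SRSF3, and 73.4% to 87.2% of its tags were in the coding sequence whichever SR protein was tagged. None of the 3 genes passed the test in any comparison.

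Introns and exons of these transcripts were not used alike. For Ddx17, 6.58% of the SRSF1 tags lay in introns, against 36.3% (SRSF6) to 53.6% (SRSF2) for each other protein, NXF1 included. For Ddx5, 41.1% of the SRSF3 tags lay in the 5′ UTR, against 0 to 14.6% for each other protein. Much of the rest lay in exons of noncoding Ddx5 transcripts, 40.0% of the SRSF2 tags and 17.8% of those of SRSF3. These SRSF2 shares rest mostly on replicates 2 and 5, whose headers name SRSF1. That pair held 1784 and 2148 of the 4095 SRSF2 tags on Ddx17, and 1609 and 1909 of the 3598 on Ddx5. A pair of 30-nt windows, both in exon 1 of Ddx5 (minus strand, mm9), held 67.4 and 61.8 CPM of the summed SRSF3 libraries, with at most 17.1 CPM for any other protein in the first. They are printed with windows from Dhx32 intron 1 and Ddx17 intron 11, 5′ to 3′, with the word CNTC (N is any base) in capitals, because that pyrimidine word is the one known for SRSF3.
Ddx5 5′ UTR, chr11:106649778-106649807: CCTCattcatttcCATCggtccttgcCCTC
Ddx5 5′ UTR, chr11:106649688-106649717: cCGTCgccgaggcCTTCtctccgcgactcg
Dhx32 intron 1 (minus strand), chr7:140955183-140955212: tgcctgcccagtccCCTCtCTTCcccccct
Ddx17 intron 11 (minus strand), chr15:79362366-79362395: ctctttctctgccaCATCaacctacacaat

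Tags within 10 nt of small RNA genes were left out of the word counts. Across the other exonic helicase tags, the share with CNTC within the 30-nt window around the tag was 69.5%, 57.4% and 58.7% in the SRSF3 libraries. The other libraries with at least 100 such exonic tags ranged from 27.8% to 46.5%, so the groups did not overlap. Of all 189131 exonic positions of these genes, 32.1% had the word in a window of the same length on the sense strand. GAAG, a purine word that was also counted, appeared for 32.3%, 32.8% and 33.5% of the SRSF6 tags, against 21.8% of all exonic windows and 10.6% to 14.2% in the SRSF3 libraries. The highest SRSF1 library, at 32.1%, lay just under the lowest SRSF6 library, and the highest of SRSF7 was at 31.1%. TTTT was held by 26.1% and 43.5% of the tags in the pair of NXF1 libraries counted, against 12.4% of all windows. The SR protein libraries ranged from 8.47% to 27.0%, so the lower NXF1 library overlapped them. These shares are descriptions, and positions of 1 gene share their sequence.

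The spliceosome helicases are the ATPases that drive the splicing cycle from step to step. All 11 were tested. In the contrast of SRSF6 with the mean of the other 6 SR proteins only Dhx38 among them was called, their median log2 difference being 1.84, beside 1.04 for all 6069 genes tested. Dhx15, which takes the spliceosome apart, gave 340, 323 and 335 CPM in the SRSF6 libraries and 71.6, 28.5 and 27.6 CPM in the NXF1 libraries. Ddx46, which acts at branch site recognition, gave 352, 394 and 464 CPM with SRSF6 and 0, 21.4 and 27.6 CPM with NXF1. For both genes the SRSF6 and NXF1 libraries did not overlap, and the limma adjusted p for NXF1 against the SR proteins was 0.160 for Dhx15 and 0.0795 for Ddx46.

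Dhx57, a helicase of little-known function, had the lowest adjusted p of all members, with far more tags in the SRSF7 libraries. It gave 1150, 2476, 4631, 5310, 906 and 4629 CPM in SRSF7 replicates 1 to 6. Outside SRSF7 the highest library was NXF1 replicate 1 at 278 CPM, and the SR protein libraries went from 0 to 88.5 CPM. No SRSF7 library overlapped any other. The limma log2 difference of SRSF7 from the mean of the other 6 SR proteins was 6.95 (SE 0.71, adjusted p = 1.35e-08), and that of SRSF3 from SRSF7 was -5.83 (SE 1.07, adjusted p = 0.00218). The first held in all 11 alternatives and with each of the 31 libraries left out. The second ended under trimmed-mean scaling (adjusted p = 0.0591).

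Dhx57 is also the only member close to a tagged gene. It lies at chr17:80637644-80689816 on the minus strand of mm9, 31015 nt from Srsf7, and the next nearest, Dhx40, is 1239677 nt from Srsf1. Its SRSF7 tags spread over the gene, 61.7% in the coding sequence (CDS) and 36.9% in introns, against 88.1% and 10.2% for all other proteins. Of 11 bins of 5 kb along it, 10 held SRSF7 tags, at 61.2 to 1422 CPM, and no bin passed 67.8 CPM for another protein. The genes nearest to Srsf7 had their highest values in SRSF7 libraries too. Ttc39d, 171 nt away, had tags in 2 of the 6, up to 128 CPM, with 8.42 CPM the highest elsewhere, and Galm, 14988 nt away on the other side, in 2 of the 6, up to 65.7 CPM, with 0 elsewhere. Gemin6 (17152 nt) had tags in 4 of the 6 SRSF7 libraries, from 0 to 730 CPM (median 285), and up to 336 CPM elsewhere. Morn2 (82923 nt) had tags in 5 of them, from 0 to 844 CPM (median 113), and up to 218 CPM elsewhere. These highest values are those of single libraries, and in small ones a few tags give a high CPM. The smallest, SRSF7 replicate 1, held 13038 listed tags. Arhgef33, at 100118 nt, was at 0 in all 6 SRSF7 libraries, but had only 2 tags over all libraries. More copies of the gene in the SRSF7 line and more binding by SRSF7 cannot be told apart in these data. A pair of coding windows, in exons 16 and 3 (minus strand), is shown around the single positions with the most SRSF7 tags. The most tagged base is in capitals.
Dhx57 exon 16, chr17:80652519-80652548: gctggccgagtcgcaTcaggggtctgcttc
Dhx57 exon 3, chr17:80677619-80677648: acgctgcacatgacaTcagagaatcaggag

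**Figure D2:**
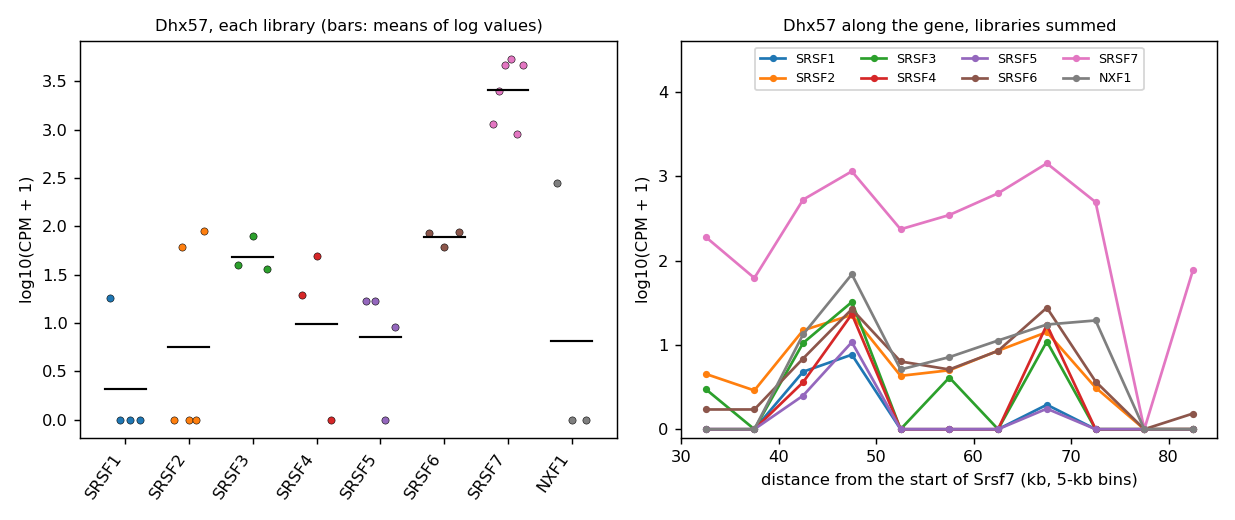
Left: Dhx57 in each library as log10(CPM + 1), with bars at the mean of these log values. Right: the same quantity for the summed libraries of each protein in 5-kb bins along the gene, against the distance from the start of Srsf7; SRSF7 lies above every other protein in each of the 10 bins with tags and all are at 0 in the remaining one.

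The ribosome biogenesis helicases work in the nucleolus, where they free and fold ribosomal RNA precursors. They held 16 members, of which 14 were tested. Against the mean of the other 6 SR proteins, SRSF6 libraries were higher for 5 of the 14, none was lower, and the log2 difference was above 0 for all 14, with a median of 1.92. Over all 41 tested members, 6 were called, all higher, beside 4.14% of all tested genes called higher, 0.676% lower and 4.81% in either direction. The median of the 41 was 1.72 and that of all genes 1.04. With trimmed-mean scaling the medians were 1.90 and 1.18 and with totals over coding genes 0.95 and 0.31. The all-gene split moved from 251 higher and 41 lower to 6 and 12 in the first case and 137 and 111 in the second.

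Ddx21, which acts in ribosomal RNA transcription and processing, gave 1363, 1779 and 1046 CPM in the SRSF6 libraries. The next highest library, SRSF4 replicate 2, had 753 CPM, so the groups did not overlap. The log2 difference was 3.27 (SE 0.89, limma adjusted p = 0.0277). Ddx10, a nucleolar helicase, gave 242, 354 and 217 CPM, above 173 CPM in SRSF7 replicate 4 (log2 difference 2.93, SE 0.70, adjusted p = 0.0152). Ddx24 gave 168, 235 and 135 CPM, above 124 CPM (4 tags) in SRSF2 replicate 1 (3.34, SE 0.89, adjusted p = 0.0253). Ddx55, a factor of the large ribosomal subunit, gave 81.4, 88.3 and 104 CPM, above 66.1 CPM in SRSF2 replicate 5 (3.32, SE 0.78, adjusted p = 0.0134).

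For Ddx27, the fifth of the group, the SRSF6 libraries at 257, 281 and 188 CPM overlapped SRSF4 replicate 2 at 263 CPM (2.59, SE 0.76, adjusted p = 0.0413). For Dhx38, the spliceosome helicase, 150, 155 and 99.1 CPM overlapped SRSF2 replicate 5 at 112 CPM (2.63, SE 0.80, adjusted p = 0.0484). These calls are fragile: each of the 6 ended when any 1 SRSF6 library was left out (highest adjusted p 0.150 to 0.263), under trimmed-mean scaling and with a weaker filter, though none changed sign. The Ddx27 call also ended without NXF1 replicate 2, SRSF3 replicate 1 or SRSF4 replicates 1 or 3. That of Dhx38 ended in addition without any NXF1 or SRSF3 library, SRSF1 replicates 2 or 3, SRSF2 replicate 1, SRSF4 replicates 1 or 3, SRSF5 replicate 1, or SRSF7 replicates 3 or 6. Within the libraries run in 2013, which include all 3 of SRSF6, all 6 were called and in all 12 of 37 tested members were higher and 1, Ddx3y, lower, beside 17.5% of all genes called higher and 2.08% lower in that fit. Ddx21 there differed by 4.33 (SE 0.82, limma adjusted p = 0.00225). The SRSF6 libraries were also deep, with 1155384 to 2323026 tags. In a fit on libraries of at least 200000 tags only, an alternative chosen after seeing the data like the fit within 2013, 16 of 39 members were higher and 1, Ddx3y, lower, beside 26.6% and 2.10% of all genes.

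**Figure D3:**
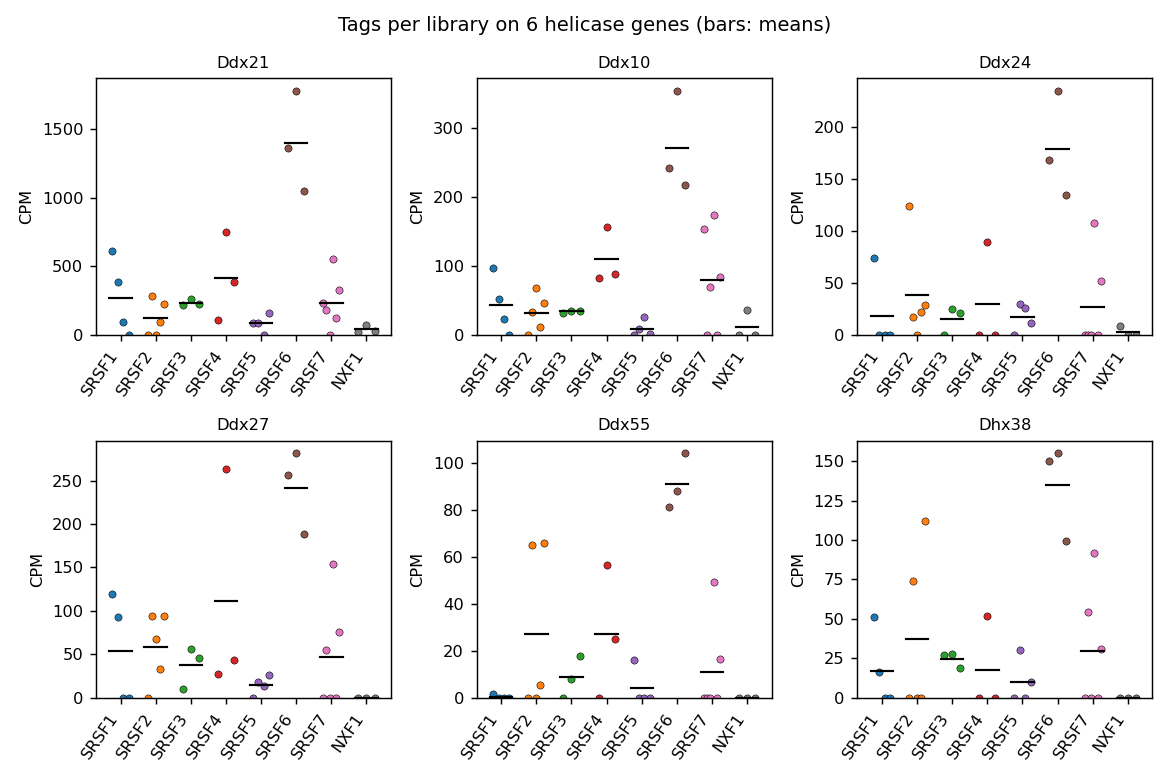
CPM of the 6 helicase genes called for SRSF6, each point 1 library and each bar the mean of a protein. SRSF6 lies above all other libraries for Ddx21, Ddx10, Ddx24 and Ddx55 and overlaps single libraries for Ddx27 and Dhx38.

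The SRSF6 tags on Ddx21 gathered in 1 exon. Exon 2 (chr10:62060980-62061639, 660 nt, coding) makes up 13.9% of the 4742-nt mRNA and held 55.1%, 56.2% and 61.8% of the exonic SRSF6 tags in replicates 1 to 3. Over summed libraries the share was 29.2% for SRSF7, 22.2% for SRSF4 and 20.2% for SRSF1, and 2.59% and 1.87% for SRSF2 and SRSF3. The exon was singled out after its values were seen, so no test is given. The 3 windows around the single positions with the most SRSF6 tags (minus strand) are printed with GAAG in capitals. They held 55.2, 40.9 and 31.8 CPM with SRSF6 and at most 12.4, 9.12 and 8.47 CPM with any other protein, and the first has no GAAG in these letters.
Ddx21 exon 2, chr10:62061375-62061404: aaaccaaagagataataacagaggagcctt
Ddx21 exon 2, chr10:62061231-62061260: aaGAAGaggcagacattcctaagcccaaga
Ddx21 exon 2, chr10:62061085-62061114: aagaaagggaaaGAAGcaagcggagatgcg

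In the SRSF5 libraries part of the same group was lower. Against the mean of the other SR proteins, 4 of the 41 members were called lower and none higher, beside 20.3% of all tested genes called lower, 1.65% higher and 22.0% in either direction, so the share of helicases was below the background. The 4 were Ddx10, Ddx21, Ddx52 and Ddx55, all of ribosome biogenesis. The median log2 difference of the 14 tested members of that role was -1.32, close to the -1.27 of all genes. Ddx10 gave 0, 7.96, 26.4 and 1.99 CPM in SRSF5 replicates 1 to 4, and differed by -3.44 on the log2 scale (SE 0.71, limma adjusted p = 0.00355). It stayed called with each library left out, and ended under trimmed-mean scaling, limma-trend and in libraries of matched depth (highest adjusted p 0.569). Ddx21 gave 88.2, 89.2, 0 and 161 CPM (-2.31, SE 0.81, adjusted p = 0.0398), and that call ended without SRSF4 replicate 2 or any 1 of SRSF5 replicates 1, 2 and 3 (highest adjusted p 0.330) and in 7 of 11 alternatives, among them the libraries run in 2013 alone (-1.99, adjusted p = 0.115) and trimmed-mean scaling (adjusted p = 0.599). Ddx52 gave 24.0, 11.1, 0 and 3.99 CPM (-1.86, SE 0.66, adjusted p = 0.0405), a call that ended in 13 of the 31 fits with 1 library left out, those without SRSF2 replicates 2 or 5, SRSF3 replicates 2 or 3, SRSF4 replicate 2, SRSF5 replicates 2, 3 or 4, each of SRSF6, and SRSF7 replicates 4 or 6. Ddx55 rests on 1 SRSF5 library at 16.0 CPM and 3 at 0 (adjusted p = 0.0200), and lost its call without SRSF5 replicate 1 or 2. In all 4 genes SRSF5 overlapped other SR proteins. Within 2013, 5 of 37 members were lower by limma, Ddx10, Ddx27, Ddx52, Ddx55 and Dhx57, beside 17.4% of all genes called lower. The mean that SRSF5 is set against there includes SRSF7 replicates 1 to 3, which had Dhx57 at 1150, 2476 and 4631 CPM. The median of the 41 was -0.93 beside -1.27 for all genes, and it moved to -0.03 with trimmed-mean scaling, where 1 member was higher and none lower, and turned to 0.23 with totals over coding genes, where 2 were higher and 2 lower. The all-gene split moved from 100 higher and 1233 lower to 82 and 23, and to 329 and 520.

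Ddx3x and Ddx3y are a near-identical pair on the sex chromosomes that helps start translation, and tags on shared stretches cannot be assigned with certainty. Ddx3y had 77, 4, 12 and 0 tags in SRSF1 replicates 1 to 4, and 143 and 160 tags in SRSF2 replicates 2 and 5 with 0 in the other 3, that pair being the one whose headers name SRSF1. SRSF7 replicates 4 and 6 had 167 and 46 tags, and SRSF5 replicate 4 had 45. In all 3 SRSF3 and all 3 SRSF4 libraries, and in all 3 of NXF1, it was listed at 0, while Ddx3x had 299 and 326 tags in SRSF3 replicates 2 and 3 and 647 in SRSF4 replicate 2. The 3 SRSF6 libraries had 1, 0 and 3 Ddx3y tags beside 1033, 437 and 857 of Ddx3x.

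Ddx3y was called higher for SRSF1 (limma adjusted p = 0.00468), 1 of 2 members called in that contrast beside 2.57% of all genes (1.15% higher, 1.42% lower), and higher for SRSF7 (adjusted p = 0.0418), 1 of 2 beside 2.95% (2.49% higher, 0.461% lower). It was called lower for SRSF3 (adjusted p = 0.0251), the only member called beside 10.7% of all genes (8.44% higher, 2.31% lower). In the SRSF3 against SRSF7 contrast it was called lower (adjusted p = 0.0144), and Dhx57 was the other of 2, beside 1.88% (0.593% higher, 1.29% lower). No fold is given, since SRSF3 was at 0. All 4 calls ended under limma-trend (highest limma adjusted p over the alternatives 0.310 to 0.833). The SRSF7 call was kept in only 5 of 10 alternatives. It also ended under trimmed-mean scaling, in the earlier run year, with exons only and with a replicate block. The SRSF1 call ended without SRSF1 replicate 3, both SRSF3 calls ended without any 1 of the 3 SRSF3 libraries, and the SRSF7 call in 13 of 31 fits with 1 library left out, those without NXF1 replicates 2 or 3, SRSF3 replicate 3, SRSF4 replicates 2 or 3, SRSF5 replicate 2, SRSF6 replicates 1 or 2, and each SRSF7 replicate but 3. Tags of 3 other Y-linked genes, Uty, Eif2s3y and Kdm5d, were counted beside it. Their sum was 0 in all SRSF3 and SRSF4 libraries, 0, 0 and 17 in those of SRSF6, and 508 and 603 in SRSF2 replicates 2 and 5. It was 501 in SRSF7 replicate 4. In SRSF1 replicates 1 to 4 it was 86, 8, 0 and 0, and in the NXF1 libraries 2, 2 and 3. SRSF1 replicate 3 had 12 Ddx3y tags beside 5 of Ddx3x and 0 of these 3 genes. The part of such Y-linked differences in the Ddx3y result was not tested.

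**Figure D4:**
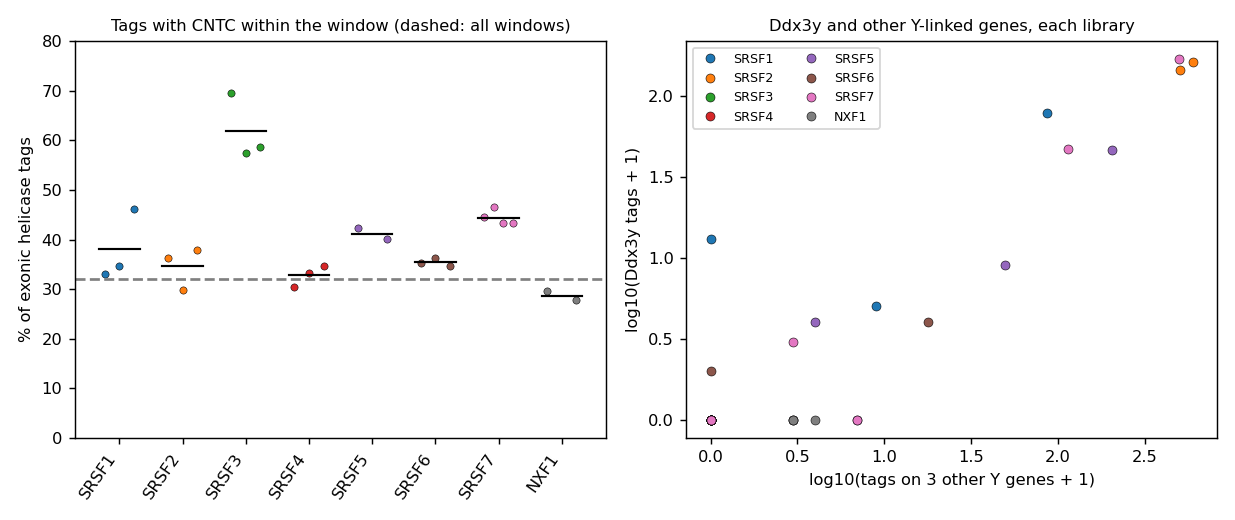
Left: share of exonic helicase tags with CNTC in the 30-nt window, each point 1 library with at least 100 exonic tags counted, bars at means, and the dashed line at the 32.1% of all exonic windows. Tags within 10 nt of small RNA genes are left out. Right: Ddx3y tags against the summed tags of Uty, Eif2s3y and Kdm5d in each library, both as log10(tags + 1); the SRSF3 and SRSF4 libraries all lie at the origin.

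In the remaining SR protein contrasts few members were called. Dhx37, which works on the small ribosomal subunit, was lower for SRSF1, with 0, 16.2, 0 and 0 CPM beside up to 89.5 CPM in the SRSF6 libraries (log2 difference -2.99, SE 0.80, limma adjusted p = 0.0334). The call was kept in 2 of 9 alternatives and ended without SRSF1 replicates 1 or 3, SRSF2 replicates 2 or 5, SRSF4 replicate 2, SRSF6 replicates 1 or 3 and SRSF7 replicates 4 or 6. For SRSF2 no member was called by limma voom or limma-trend, beside 0.428% of all genes (0.148% higher, 0.280% lower), 1 had an unadjusted p under 0.05, and the medians were 0.00 for the members and 0.09 for all genes. For SRSF4 none was called by either, beside 0.428% (0.395% higher, 0.0330% lower), 1 had an unadjusted p under 0.05, and the medians were -0.16 and -0.43. Ddx6, which represses and helps to degrade mRNA, stood at 252, 208 and 219 CPM in the SRSF3 libraries and did not pass (2.21, SE 0.81, adjusted p = 0.0686). The median of the 41 for SRSF7 was 0.15 beside 0.54 for all genes, and fell below 0 with both other scalings (-0.74 and -0.07). That for SRSF3 was 0.14 beside 0.79 for all genes and turned to -0.48 with totals over coding genes.

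NXF1 libraries listed few helicase tags, 0.0975% to 0.195% of their total. Against the mean of the 7 SR proteins, 1 of 41 members, Dhx36, was called, beside 2.49% of all genes called lower, 3.11% higher and 5.60% in either direction. Dhx36, which unwinds G-quadruplexes, gave 0, 14.2 and 0 CPM with NXF1, while the 28 SR protein libraries had a lowest of 0, a median of 104 CPM and a highest of 232 CPM. The groups overlapped at the low end, and with 2 NXF1 tags no fold is given (limma adjusted p = 0.0478). The call ended in 17 of the 31 fits with 1 library left out: those without any of the NXF1, SRSF3 or SRSF6 libraries, SRSF1 replicates 2 or 4, SRSF2 replicate 4, SRSF4 replicate 3, SRSF5 replicates 2 or 4, and SRSF7 replicates 2 or 3. Within the libraries run in 2014, which hold all of NXF1, 13 of 32 members were lower, Dhx36 among them (limma adjusted p = 0.0352), beside 23.1% of all genes called lower in that fit. The log2 difference was above 0 for 3 of the 41. Their median was -2.32, beside -1.86 for all genes, then -1.34 beside -0.88 with trimmed-mean scaling and -1.23 beside -0.67 with totals over coding genes. The all-gene split went from 189 higher and 151 lower to 184 and 4, and 499 and 57.

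The place of the NXF1 tags within helicase transcripts also differed from that of the SR proteins. In the NXF1 libraries 21.4%, 22.3% and 24.5% of the helicase tags lay in 3′ UTRs, while the 28 SR protein libraries ranged from 0 to 21.4% with a median of 6.51%. Only the highest SR protein library, SRSF7 replicate 5 with 28 helicase tags, reached the lowest NXF1 library. The means were 22.7% ± 1.60 (SD, n = 3) and 8.14% ± 5.18 (SD, n = 28), an exact two-sided permutation test over libraries giving p = 0.000445 (Benjamini-Hochberg adjusted over 4 transcript parts, p = 0.00089). In the CDS NXF1 had 37.4%, 27.2% and 14.2%, while the SR protein libraries went from 27.7% to 84.5%, with 2 of them below the highest NXF1 library (adjusted p = 0.00119 by the exact permutation test). In introns the means were 22.0% ± 8.72 and 19.9% ± 13.6 (adjusted p = 0.813 by the same exact test). In other coding genes, too, the mean 3′ UTR share was higher with NXF1, at 25.1% beside 11.3%. The mean CDS share was also lower there with NXF1, at 24.3% beside 44.3%.

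The 5′ UTR share was also higher with NXF1, at 18.2%, 29.7% and 28.3%, with a range of 0 to 20.6% and a median of 5.00% in the SR protein libraries (exact permutation test, adjusted p = 0.00089). Small RNA tags inside Ddx39b moved with it. A copy of the small nucleolar RNA SNORD83 lies in its exon 1 and another in its intron 4, and the tags within 10 nt of small RNA genes made up 77.0%, 96.5% and 90.6% of the Ddx39b tags in NXF1 replicates 1 to 3. Ddx39b stood at 531, 606 and 488 CPM there and at 122, 21.4 and 46.0 CPM outside the small RNAs. Without such tags, an alternative chosen after seeing the data, the NXF1 5′ UTR share was 3.59%, beside 4.78% in the SR protein libraries (adjusted p = 0.615 by the exact permutation test), while the 3′ UTR share was 36.7% beside 8.28% (adjusted p = 0.00089). In other coding genes, small RNA tags included, the mean 5′ UTR share was 6.79% with NXF1 and 5.81% with the SR proteins.

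In both windows the most tagged base was the one just before the first snoRNA base, with 278 tags in 21 libraries at the first copy and 445 tags in 20 libraries at the second. The second copy had 156 CPM in the summed NXF1 libraries and 64.7 CPM at most for an SR protein, the first 310 CPM and 56.7 CPM. The windows are printed on the plus strand with the snoRNA bases in capitals. The copies share a name, but their printed first bases are not identical. Whether a cDNA could be assigned to either copy was not tested.
Ddx39b exon 1, chr17:35379607-35379636: caagagaatagcggcaGCCACATGATGTTT
Ddx39b intron 4, chr17:35384104-35384133: gggagcagccctttgaGCCAAATGATGTAT

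**Figure D5:**
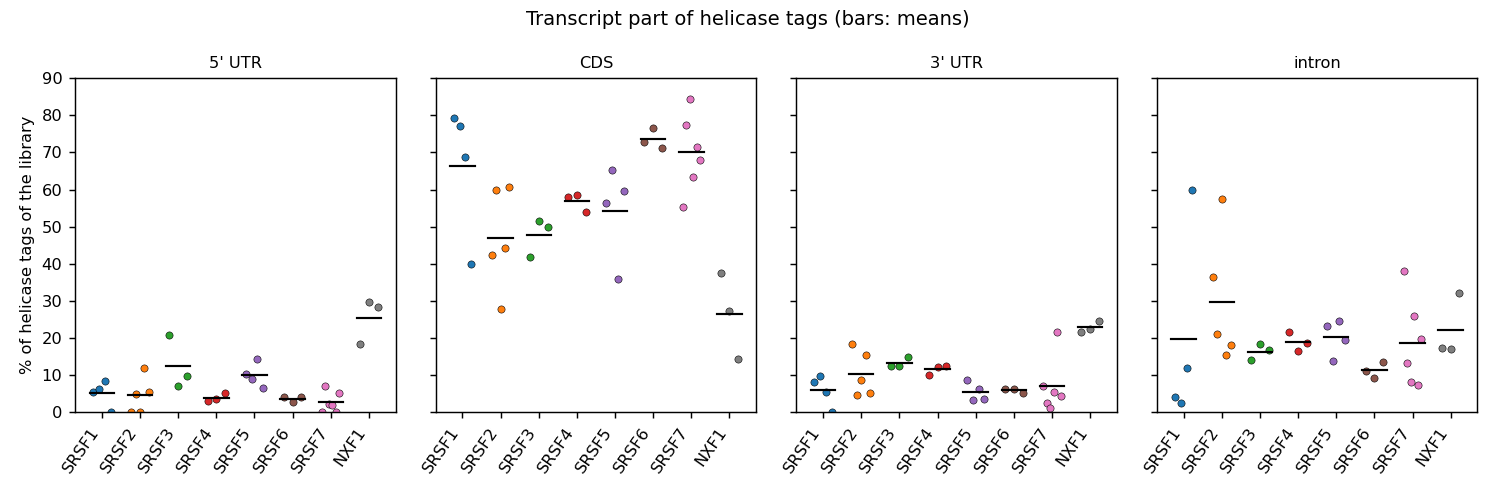
Share of the helicase tags of each library in 5′ UTRs, CDS, 3′ UTRs and introns, each point 1 library and each bar the mean of a protein. The 3 NXF1 libraries lie at the top of the 3′ UTR panel and low in the CDS panel.

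The NXF1 tags in 3′ UTRs fell on 23 members of the pooled NXF1 file. Ddx6 held 73 of them (23.3%), Ddx5 53, Ddx17 43 and Ddx3x 42. In the single libraries all 39 NXF1 tags on Ddx6 were in its 3′ UTR, against 14.3% to 54.9% for the SR proteins. The window around the position with the most NXF1 tags there, in the last exon on the plus strand, had 30.8 CPM with NXF1. With an SR protein the window had at most 2.22 CPM. Its most tagged base is in capitals.
Ddx6 3′ UTR, chr9:44447815-44447844: gggtgggaggggaggGtactgtgtcccaaa

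Among the SR proteins themselves no transcript part passed the test in helicase genes, over 7 proteins and 4 parts (exact permutation tests over libraries, lowest adjusted p 0.278), and 4 of these had an unadjusted p under 0.05. SRSF3 had the highest mean 5′ UTR share, 12.4% beside 4.76% in the other SR protein libraries (p = 0.0128 by the exact permutation test). SRSF2 had the lowest mean CDS share, 47.0% beside 62.5% (p = 0.0267), and SRSF7 a mean of 70.0% beside 56.9% (p = 0.0467), both by exact permutation tests. Dhx57 held much of the SRSF7 helicase tags, 198 of 310 in replicate 3 and 23679 of 60104 in replicate 4, and without it the SRSF7 mean was 61.1% beside 56.8% (p = 0.507, exact permutation test). In 29 of 31 libraries the CDS share was higher in helicase genes than in other coding genes, by a median of 7.37 percentage points.

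Tag numbers varied widely among the members of other roles. Ddx11, which acts in genome maintenance, had 3238 tags over all libraries, Dhx30, of mitochondrial ribosomes, had 2922 and Dhx40 had 2238, and none of the 3 was called. Ddx58, Dhx58 and Ddx60, sensors of viral RNA, had 9, 5 and 0 tags over all libraries. Ddx4, Ddx25 and Ddx43, helicases of germ cells, had 26, 165 and 75. Among the export helicases, Ddx39, the paralog of Ddx39b, gave 207, 218 and 158 CPM with SRSF6 and 8.42, 0 and 27.6 CPM with NXF1, and Ddx19a, which acts at the nuclear pore, did not pass a test. A list of 20 further helicase genes outside the naming rule, 14 of them tested, had 5 calls over all contrasts. Dqx1 was higher with NXF1 (log2 difference 2.48, limma adjusted p = 0.0128), 1 of 14 beside 3.11% of all genes called higher. Ascc3 and Dicer1 were lower with SRSF5, 2 of 14 beside 20.3% of all genes called lower. Znfx1 was higher with SRSF6 (2.97, limma adjusted p = 0.0223), 1 of 14 beside 4.14% called higher. With SRSF7, Ascc3 was higher, 1 of 14 beside 2.49% called higher.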

How the data were processed

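The deposited files list, per position and strand of mm9, a whole number of cDNAs (tags), and the unit is recorded as other: per the file headers the authors selected positions by permuting cDNA counts within annotated segments and listed only those past a false discovery rate of 0.05, so these are neither complete counts nor a depth. A position missing the threshold is absent. CASAVA 1.4 and the build mm9 come from the submitters' processing notes (aligner: not given in the sources used here). The tag cluster files, made from pooled libraries, were not used for tests.

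Same-strand tags were summed per gene of GENCODE vM1, from which transcript parts were also taken. The members, roles and lists were chosen with earlier results of these data known. Levels are tags scaled to 1e6 listed tags (CPM). Genes at or above 42.1 CPM (10 tags in the median library) in at least 3 libraries, with at least 15 tags, were tested: 6069, with 41 members. One limma voom fit (R 4.3.3, limma 3.58.1) over 31 libraries, scaled by listed totals, gave each contrast. The p-values were adjusted by Benjamini-Hochberg over all genes tested, with 0.05 as the threshold for a call. Log2 differences are on the voom scale. The contrasts share libraries, each SR protein being part of the mean the others are set against. Shares per transcript part used two-sided exact permutation tests over libraries. Replicates are separate samples of a line, and the limma p-values measure only the spread between them. The permutation tests treat the libraries of all the compared SR proteins as exchangeable. Their spread therefore also holds differences between those proteins. In these bulk libraries the tags on a gene combine how much of its RNA the cells hold, in each cell or in more cells, and how often it is bound, which cannot be told apart.

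Named members are the up to 15 with the highest level, those called (up to 10 per contrast), Dhx57, and members with control tags. Others are named for a role or a count and were chosen after their values were seen, as were the words and windows. Windows of 30 nt are centered on the tagged base. Counting used Python 3.11.15, pandas 2.3.3 and numpy 2.4.6, figures matplotlib 3.10.9. The steps were tested on simulated data. For NXF1 against the SR proteins, 54% of genes set 8-fold lower and 10% of those set 4-fold lower were recovered. For higher genes it was 92% and 58%. Few lower calls for NXF1 therefore do not show that a difference is absent. For SRSF3 against SRSF7, 88% and 78% of genes 8-fold higher and lower were recovered, and 38% and 40% at 4-fold. Alternatives were other scalings (trimmed mean of M values, and totals over protein-coding genes), limma-trend, other filters, exons only, each position once, library subsets by depth, run year or header, a replicate block, and each library left out. No 2 libraries of a protein agreed within sampling noise (lowest chi-square per degree of freedom 7.26 over 49 pairs).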

Additional observations from a re-analysis of the deposited data

Results flagged for a closer look

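Over the 22 named genes and the transcript parts, 104 groups of 4 to 6 libraries were searched for a single library far from the others of its protein, of which chance alone would give about 1 in 20. There were 9, mostly where the other libraries were at 0. SRSF1 replicate 1, the deepest of its group, had the only Dhx57 (17.1 CPM), Ddx24 (73.9 CPM) and Ddx55 (1.42 CPM) tags of SRSF1, and SRSF1 replicate 2 the only Dhx37 tags (16.2 CPM). Ddx24 stood at 124 CPM (4 tags) in SRSF2 replicate 1, with 29.3 CPM next. Ddx55 stood at 16.0 CPM in SRSF5 replicate 1 with 0 in the other 3, and at 49.3 CPM in SRSF7 replicate 4, with 16.3 CPM next. The intron share was 60.0% in SRSF1 replicate 4, a library with 5 helicase tags, with 11.9% next. The 3′ UTR share was 21.4% in SRSF7 replicate 5, with 28 helicase tags, and 6.90% next.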

How the results depend on the processing

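Small libraries and unlisted positions limit every value here, and a call near the threshold is not settled by 3 libraries. Of 180 values of called genes under the alternatives, 119 kept their call and 61 lost it, and of 558 with 1 library left out, 457 kept it and 101 lost it; none turned. The 7 SR protein contrasts gave 15 calls, a gene counting once per contrast. There were 5 calls under trimmed-mean scaling, 4 under limma-trend, 6 with the weaker filter and 59 in libraries of at least 200000 tags (6 to 24 with 1 library left out), new calls included. For SRSF6, 6 became 0, 3, 0 and 17 in that order, 11 without SRSF2 replicates 2 and 5, and 13 in the earlier run year (0 to 12 with 1 left out). For SRSF3 against SRSF7, 2 became 1 under trimmed-mean scaling, limma-trend and in the later run year, and 15 in libraries of at least 200000 tags (1 to 2). For NXF1, 1 became 0 under trimmed-mean scaling, totals over coding genes, limma-trend and outside small RNA genes, 2 without SRSF2 replicates 2 and 5, 12 in libraries of at least 200000 tags and 13 in the later run year (0 to 3). All-gene calls rose as well, for NXF1 from 340 of 6069 to 1069 of 5042 in libraries of at least 200000 tags. The restriction to 200000 tags, the earlier run year and the tags outside small RNA genes were chosen after seeing the data. Causes of these changes were not tested.

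The NXF1 difference in 5′ UTR share, 19.8 points, was 11.3 in the pooled files and reversed to -1.19 outside small RNA genes (17.7 to 23.4 with 1 library left out). That in CDS stayed between -39.0 and -27.4 points and that in 3′ UTRs between 13.7 and 15.3 with 1 left out. The intron difference, 2.09 points and not called, was -2.21 with each position counted once, -4.32 outside small RNA genes, -1.42 in the pooled files and -2.95 without NXF1 replicate 3 (-2.95 to 4.68). Among SR proteins no part was called under any alternative.

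With the replicate number as a replicate block, NXF1 had 3 members called and the 3′ UTR difference was 14.5 points (adjusted p = 0.00391 by an exact permutation test within blocks). The numbers do not pair the libraries: deviations of same-numbered libraries had a mean correlation of 0.0149 over 91 pairs, from -0.364 to 0.441.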

Other observations

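Dhx35, a spliceosome helicase, held a pile on a single base of intron 21 (plus strand, most tagged base in capitals). In the SRSF4 libraries 54 of the 56 tags of the window fell on that base, and 125 tags from 4 proteins and 10 libraries lay on it in all.
Dhx35 intron 21, chr2:158679845-158679874: gccactcttagaatgCcttggtctacacat

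The share of NXF1 positions in helicase 3′ UTRs that lay near listed SR protein positions varied. Of 263 such positions in the pooled NXF1 file, 240 (91.3%) were within 30 nt of an SRSF3 position and 236 (89.7%) of an SRSF6 position. For SRSF4 the number was 232 (88.2%) and for SRSF2 227 (86.3%). It was 151 (57.4%) for SRSF1, 138 (52.5%) for SRSF5 and 131 (49.8%) for SRSF7. The pooled files differ in depth, so these shares set no order among the SR proteins.

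The Ddx17 position with the most SRSF2 tags lay in intron 11, in a window at 51.3 CPM (minus strand, most tagged base in capitals). Replicates 2 and 5, whose headers name SRSF1, held 1784 and 2148 of the 4095 SRSF2 tags on the gene.
Ddx17 intron 11, chr15:79363692-79363721: tttttttttttaattTttctacaatcaccc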
